A study of Homo sapiens with 48 samples.

Results

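The genes described here encode the receptors of insulin-like growth factors (IGFs) and insulin and the adaptor proteins that dock on them, namely IGF1R, INSR, IGF2R, IRS1, IRS2, IRS4, SHC1 and GRB10. Members were all probe sets, the groups of short probes that read a stretch of a transcript on the array, whose single gene symbol in the platform annotation was among these 8 genes. This gave 26 of the 54613 probe sets tested, and 8 of the 19775 genes that at least 1 unambiguous probe set represents. IGF1R and INSR had 5 probe sets each, GRB10 4, IGF2R and IRS1 3 each, and IRS2, IRS4 and SHC1 2 each, and 0 of the 26 carried a second symbol.

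RNA came from sublines of T47D-YA, a human breast cancer line that the study describes as lacking IRS proteins and keeping a working IGF-I receptor. The labels name 2 sublines that express IRS-1 (#10 and #20) and 2 that express IRS-2 (#1 and #6), each a single clone kept under hygromycin B, with G418 in all cultures. Every group was first starved for 24 h in SFM, a medium without serum. Cells were then given SFM+FN (SFM with fibronectin), alone in the controls (called SFM below) or with IGF-I. RNA was taken 4 h or 24 h later. The 16 groups of clone, treatment and time held 3 Affymetrix HG-U133 Plus 2.0 arrays each (replicates A, B and C), 48 in all. None of the 48 arrays came from cells without either adaptor. Where 4 values follow each other, they stand for #10, #20, #1 and #6 in this order.

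IGF-I binds IGF1R, a receptor tyrosine kinase that resembles the insulin receptor INSR and forms hybrids with it. The activated receptors phosphorylate IRS adaptors, which recruit PI 3-kinase, and SHC1, which leads through GRB2 to Ras and the MAP kinases. IGF2R has no kinase and carries IGF-II to the lysosome, and GRB10 binds the activated receptors and restrains their signal. Sustained signalling through the pathway is known to lower IRS-1 protein and to pull the receptors in from the cell surface.

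The promoter windows of IGF1R, IRS1, IRS2 and GRB10 are shown, genes whose array values differed between clones, those of IRS2 by less than 1.5-fold in the main test. IGF2R also differed between clones, and its window is not printed. Windows are 300 bases of RefSeq sequence on GRCh38.p14 around an annotated transcript start, written 5′ to 3′ along the gene. Capitals mark GGGCGG (the GC box), CACGTG (an E-box) or TTGTTT (a FOXO-type motif) on either strand. IGF1R lies on the plus strand at chr15:98648289-98648588, IRS1 on the minus strand at chr2:226799771-226800070, IRS2 on the minus strand at chr13:109786534-109786833 and GRB10 on the minus strand at chr7:50793404-50793703, the most upstream of its 5 windows.
IGF1R: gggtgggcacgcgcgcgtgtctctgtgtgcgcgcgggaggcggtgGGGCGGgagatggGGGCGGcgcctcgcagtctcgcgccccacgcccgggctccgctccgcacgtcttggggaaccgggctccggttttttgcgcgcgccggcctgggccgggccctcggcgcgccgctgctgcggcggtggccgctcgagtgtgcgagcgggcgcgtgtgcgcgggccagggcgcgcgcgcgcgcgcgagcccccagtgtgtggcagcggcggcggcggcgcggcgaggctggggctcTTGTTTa
IRS1: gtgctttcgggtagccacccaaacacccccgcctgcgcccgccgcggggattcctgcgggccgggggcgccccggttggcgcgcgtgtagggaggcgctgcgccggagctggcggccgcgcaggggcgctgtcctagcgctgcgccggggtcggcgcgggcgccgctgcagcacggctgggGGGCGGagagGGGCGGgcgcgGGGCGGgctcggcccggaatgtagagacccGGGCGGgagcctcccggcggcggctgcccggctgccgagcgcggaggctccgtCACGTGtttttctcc
IRS2: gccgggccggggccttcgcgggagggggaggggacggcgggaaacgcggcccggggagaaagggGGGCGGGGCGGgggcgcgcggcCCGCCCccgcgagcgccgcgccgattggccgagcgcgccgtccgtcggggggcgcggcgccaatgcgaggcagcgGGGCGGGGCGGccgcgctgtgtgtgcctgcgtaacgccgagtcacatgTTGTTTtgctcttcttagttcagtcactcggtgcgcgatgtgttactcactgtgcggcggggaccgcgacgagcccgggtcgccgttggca
GRB10: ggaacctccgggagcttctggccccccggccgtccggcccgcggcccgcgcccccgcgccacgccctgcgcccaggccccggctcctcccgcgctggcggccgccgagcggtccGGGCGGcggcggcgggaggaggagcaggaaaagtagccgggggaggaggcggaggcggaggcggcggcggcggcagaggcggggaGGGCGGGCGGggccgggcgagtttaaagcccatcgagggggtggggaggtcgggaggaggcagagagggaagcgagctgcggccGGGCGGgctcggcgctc

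All 4 windows held GC boxes, 2 in IGF1R, 4 in IRS1, 5 in IRS2 and 4 in GRB10, some of which overlap each other in IRS2 and GRB10. Of 35116 windows of this length, 45.0% held at least 1 GC box. The E-box was found once in the IRS1 window and in none of the other 3 printed here, against 7.26% of all windows. TTGTTT was found once each in the windows of IGF1R and IRS2, against 17.9% of all windows. Among member windows not printed, that of IGF2R held 6 GC boxes and 3 E-boxes, and 1 of the 2 of IRS4 held 1 E-box. These matches are letters in a window and say nothing of which start the cells used.

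Values are log2 probe set levels, compared between arrays only for the same probe set. Within groups, arrays correlated at 0.994 to 0.998 over all probe sets, and array medians lay between 7.39 and 7.50. Of 11 luminal breast markers, 10 averaged at least 10.05 (ESR1) in every clone, while the oestrogen target TFF1 ranged from 7.17 to 8.62. Marker lists of fibroblasts, leukocytes, endothelium and basal epithelium spanned 4.41 to 10.71, 4.95 to 8.20, 5.25 to 9.35 and 5.80 to 9.84, without a floor that would tell low from absent. The 3′ minus 5′ difference of the ACTB control probe sets, a sign of RNA integrity, averaged 0.25 and 0.21 on the 4 h SFM arrays of IRS-1 #10 and #20, and 0.15 and 0.12 on those of IRS-2 #1 and #6. On the 24 h SFM arrays it averaged 0.23, 0.19, 0.16 and 0.11. It was thus lower in both IRS-2 clones than in both IRS-1 clones, but it also differed between the clones of an isoform. Calls that depend on it are named below. It was also lower on the IGF-I arrays than on the SFM arrays in 8 of 8 pairs of groups, by differences from -0.05 to -0.01. The same difference for GAPDH averaged -0.04, -0.12, -0.10 and -0.17 on the 4 h SFM arrays, without a split by isoform. At 24 h in SFM it averaged -0.08, -0.09, -0.11 and -0.11. With IGF-I the GAPDH difference was higher at 4 h in #10, #20 and #6. It was lower in #1 at 4 h and in every clone at 24 h. A probe set is written as called when its Benjamini-Hochberg adjusted p in limma, over all 54613 probe sets, was under 0.05 and its difference at least 1.5-fold. The labels do not say whether the 3 arrays of a group came from separate cultures, so p-values measure the spread between these arrays, which may be technical.

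The transferred genes were read first, because the labels rest on them. In SFM, IRS1 by 204686_at was lowest in the clones labelled IRS-1 and highest in those labelled IRS-2. Its 6 SFM arrays of IRS-1 #10 lay between 5.35 and 5.87 (median 5.66) and those of IRS-1 #20 between 5.86 and 6.27 (median 6.08). In IRS-2 #1 they lay between 8.32 and 8.58 (median 8.46), and in IRS-2 #6 between 7.65 and 8.22 (median 7.86). All 12 arrays labelled IRS-2 were thus above all 12 labelled IRS-1.

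The mean difference of IRS1 204686_at was 2.32 (SE 0.06, adjusted p = 3.92e-35), a 5.00-fold higher level in the clones labelled IRS-2. The order was #10, #20, #6, #1, and the step from #10 to #20 was 0.45 (adjusted p = 1.01e-05) and #6 minus #1 was -0.55 (adjusted p = 4.50e-07), both short of 1.5-fold (without the replicate B arrays the latter was called, -0.63 for #6 minus #1). The steps from either IRS-1 clone to either IRS-2 clone ran from 1.83 to 2.82. The other 2 IRS1 probe sets moved the same way by much less, 238933_at by 0.17 (adjusted p = 9.92e-05) and 242979_at by 0.35 (adjusted p = 8.78e-07), and both were short of 1.5-fold. On 242979_at the clones labelled IRS-1 averaged 4.57 and 4.58, near the low end of the array's values, against 4.99 and 4.87 in the others.

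IRS2, an adaptor tied to motility in breast cells, was not higher in the clones that carry its name. On 209185_s_at the 6 SFM arrays of IRS-1 #10 lay between 7.31 and 7.59 and those of IRS-1 #20 between 6.98 and 7.44. Those of IRS-2 #1 lay between 6.79 and 7.00 and those of IRS-2 #6 between 6.74 and 7.00. IRS-1 #10 was clear of both IRS-2 clones, while #20 touched them.

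The difference of IRS2 209185_s_at, IRS-2 minus IRS-1, was -0.41 (SE 0.05, adjusted p = 5.96e-11), a 1.33-fold lower level that was not called. Against IRS-1 #10 alone it was -0.56 in IRS-2 #1 and -0.58 in IRS-2 #6, just short of 1.5-fold, and both were called without the replicate A arrays (-0.63 and -0.59), the second also without replicate B (-0.60). The other IRS2 probe set, 209184_s_at, had clone means of 7.02 to 7.13 and a difference of -0.02 (SE 0.04). So 0 of the 5 probe sets of IRS1 and IRS2 gave the transferred gene the higher level in the clones named for it. Where these probe sets lie relative to the transferred sequences was not given in the sources used here, and a probe set outside them reads only the cells' own gene. Whether the labels of the clones were exchanged was not tested either, and an exchange would turn the sign of every difference between isoforms. For these reasons the clones are written below as labelled IRS-1 and labelled IRS-2.

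**Figure D1:**
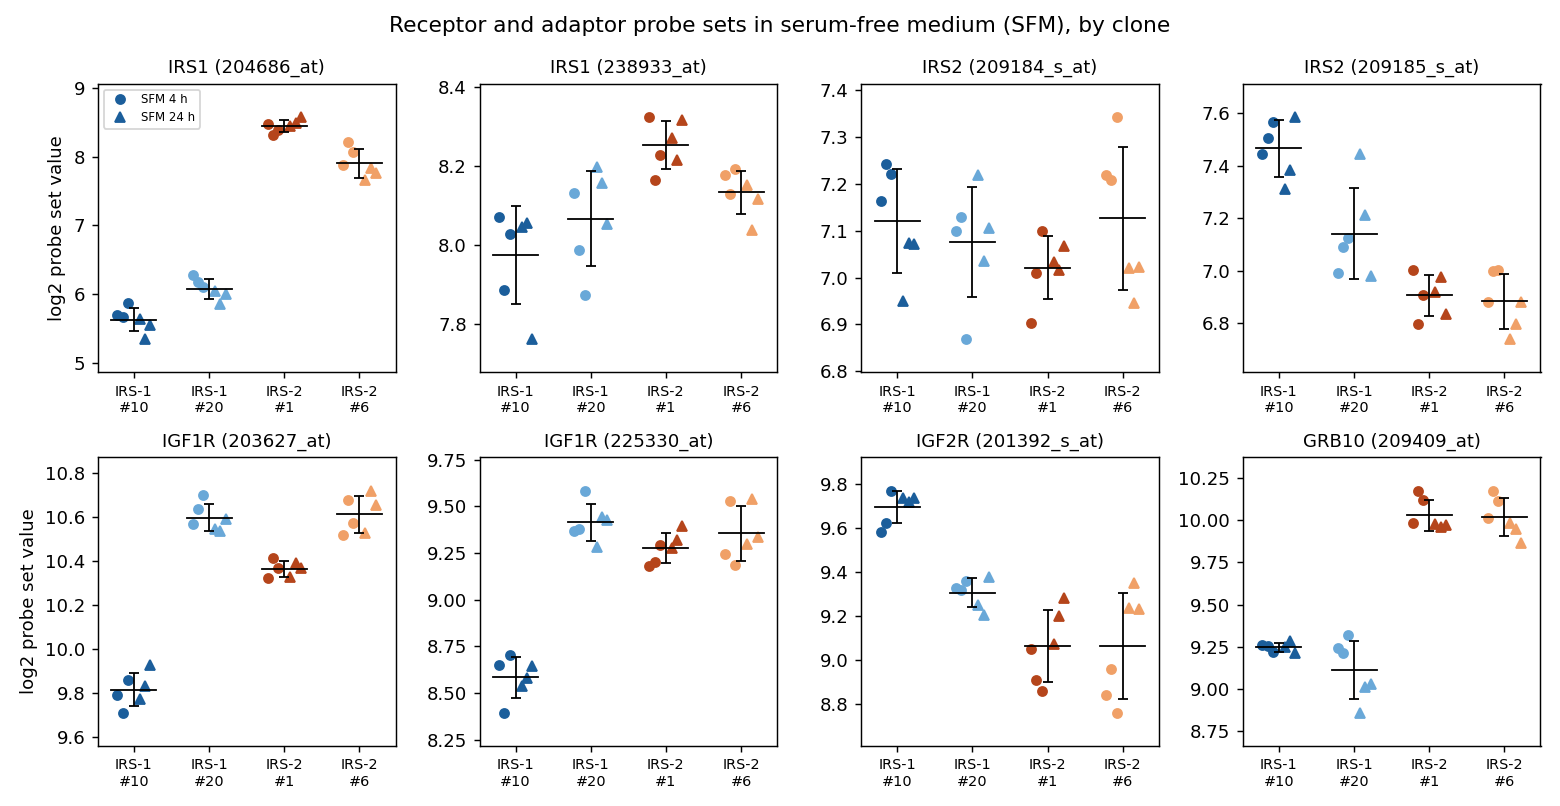
Log2 values of 8 receptor and adaptor probe sets on the 24 SFM arrays, by clone (points: circles 4 h, triangles 24 h; bar and whiskers: mean and SD over 6 arrays; each panel has its own axis, which does not start at 0). IRS1 (204686_at) and GRB10 (209409_at) separated the clones labelled IRS-2 from those labelled IRS-1, while IGF1R was lowest and IGF2R (201392_s_at) and IRS2 (209185_s_at) highest in IRS-1 #10.

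Among the receptors, IGF1R differed between clones rather than between isoforms. On 203627_at, the SFM arrays of IRS-1 #10 lay between 9.71 and 9.93, and those of the other 3 clones between 10.32 and 10.72, with no overlap. The clone means were 9.82 ± 0.07, 10.60 ± 0.06, 10.37 ± 0.04 and 10.61 ± 0.08 (SD, n = 6 arrays). IRS-1 #20 exceeded #10 by 0.78 (1.72-fold, adjusted p = 3.11e-20) and IRS-2 #6 exceeded it by 0.80 (1.74-fold, adjusted p = 7.82e-21). IRS-2 #1 exceeded it by 0.55, which passed the adjusted p (4.31e-15) and was short of 1.5-fold, though it was called at 0.59 without the replicate C arrays and at 0.59 with median centring.

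A second IGF1R probe set, 225330_at, gave the same picture, with IRS-1 #10 between 8.40 and 8.70 and the other clones between 9.18 and 9.58. Against IRS-1 #10 it was higher by 0.83 in #20, 0.69 in #1 and 0.77 in #6, all 3 called. On 203628_at only the step to IRS-1 #20 was called (0.64, adjusted p = 2.51e-10), and 243358_at was higher in #20 by 0.32 without reaching 1.5-fold. The probe set 208441_at stayed between 5.66 and 6.10 on all SFM arrays. The mean of the isoforms therefore differed by only 0.28 on 203627_at and 0.32 on 225330_at, and by -0.15 on 243358_at, all past the adjusted p and none called.

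INSR, the insulin receptor, differed little between clones. On 213792_s_at, clone means in SFM were 8.28 ± 0.11, 8.51 ± 0.22, 8.15 ± 0.15 and 8.22 ± 0.15 (SD, n = 6 arrays), and the ranges overlapped. Of 5 INSR probe sets, 4 were lower in the clones labelled IRS-2 at the adjusted p, with differences from -0.10 (226216_at, adjusted p = 0.00641) to -0.21 (213792_s_at, adjusted p = 5.00e-06). No difference of INSR between a pair of clones was called.

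IGF2R ran opposite to IGF1R. On 201392_s_at, the SFM arrays of IRS-1 #10 lay between 9.58 and 9.77, above those of every other clone. Those of IRS-1 #20 lay between 9.20 and 9.38, of IRS-2 #1 between 8.86 and 9.28 and of IRS-2 #6 between 8.76 and 9.35, and these 3 clones overlapped each other. Both IRS-2 clones differed from #10 by -0.63 (1.55-fold, adjusted p = 1.57e-11 and 1.59e-11), and #20 by -0.39 (adjusted p = 3.45e-06). With the ACTB 3′ to 5′ difference as a covariate, chosen after seeing the data, the first 2 became -0.58 and -0.56 and were no longer called, and that of IRS-2 #6 was also lost without the replicate C arrays (-0.57).

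On 201393_s_at the differences from IRS-1 #10 were -0.47 in #20, -0.54 in #1 and -0.49 in #6, each past the adjusted p and not called, except that quantile normalization gave -0.65 and a call in IRS-2 #1. These differences pool both times in SFM. At 4 h #10 read 10.73, 10.77 and 10.90, #1 read 10.18, 9.89 and 10.10, and #6 read 10.08, 10.32 and 10.05. At 24 h they read 10.80, 10.91 and 10.87, then 10.42, 10.53 and 10.64, then 10.45, 10.61 and 10.55, a narrower gap. The remaining one, 1569052_at, had clone means of 6.05 to 6.18 in SFM and passed in 0 of 6 pairs. Between isoforms, IRS-2 minus IRS-1, IGF2R differed by -0.44 on 201392_s_at and by -0.28 on 201393_s_at, neither called.

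GRB10 was the other gene with called probe sets between the isoforms, although the mean of its 4 probe sets differed by 0.45 and was not called. On 209409_at, SFM arrays of IRS-1 #10 lay between 9.21 and 9.28 and those of IRS-1 #20 between 8.86 and 9.32. Those of IRS-2 #1 lay between 9.96 and 10.17 and those of IRS-2 #6 between 9.87 and 10.17, so no array of one isoform reached the other. The difference was 0.84 (SE 0.03, 1.79-fold, adjusted p = 9.62e-29).

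On 210999_s_at the 12 arrays labelled IRS-2 again lay above the 12 labelled IRS-1, with clone means of 8.51, 8.88, 9.38 and 9.57. Its difference was 0.78 (SE 0.03, 1.72-fold, adjusted p = 1.72e-25). The probe set 209410_s_at was higher by 0.45 (adjusted p = 2.12e-18), and its largest step, from IRS-1 #10 to IRS-2 #6, was called at 0.66. The remaining one, 215248_at, went the other way by -0.29 (adjusted p = 1.15e-06) at clone means of 6.26 to 6.64, so the 4 probe sets of GRB10 did not share a sign.

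SHC1 and IRS4 completed the adaptors. SHC1 on 214853_s_at averaged 11.96, 11.73, 12.13 and 12.18 in the 4 clones, a difference between isoforms of 0.31 (adjusted p = 1.46e-17) that was not called. On 201469_s_at it was 0.14 (adjusted p = 0.00285). IRS4, an adaptor with restricted tissue expression, averaged 6.13 to 6.21 by clone on 207403_at and 5.45 to 5.62 on 1560652_at, and its isoform differences were 0.02 and -0.05.

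Over all members, 3 of 26 probe sets were called between the isoforms in SFM, where 6.37% of all probe sets were, and all 3 were higher in the clones labelled IRS-2 (2.51% of all probe sets), the 1 of IRS1 and the 2 of GRB10 given above. At the adjusted p alone the count was 19 of 26, where 62.6% of all probe sets passed. Between pairs of clones, 8 of 26 probe sets were called in at least 1 of 6 pairs, where 14.3% of all probe sets were, and they belonged to IGF1R (3), IGF2R (1), IRS1 (1) and GRB10 (3). In #20, #1 and #6 against #10, 3.37%, 8.49% and 8.75% of all probe sets were called and 31.8%, 53.4% and 54.8% passed the adjusted p. The figures were 7.75% and 51.6% for #1 against #20, 6.39% and 50.5% for #6 against #20, and 1.07% and 19.3% for #6 against #1. These isoform contrasts rest on 2 clones each and on the spread between arrays, so the spread between clones is not in their errors, and clone and isoform cannot be told apart beyond those 2.

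**Figure D2:**
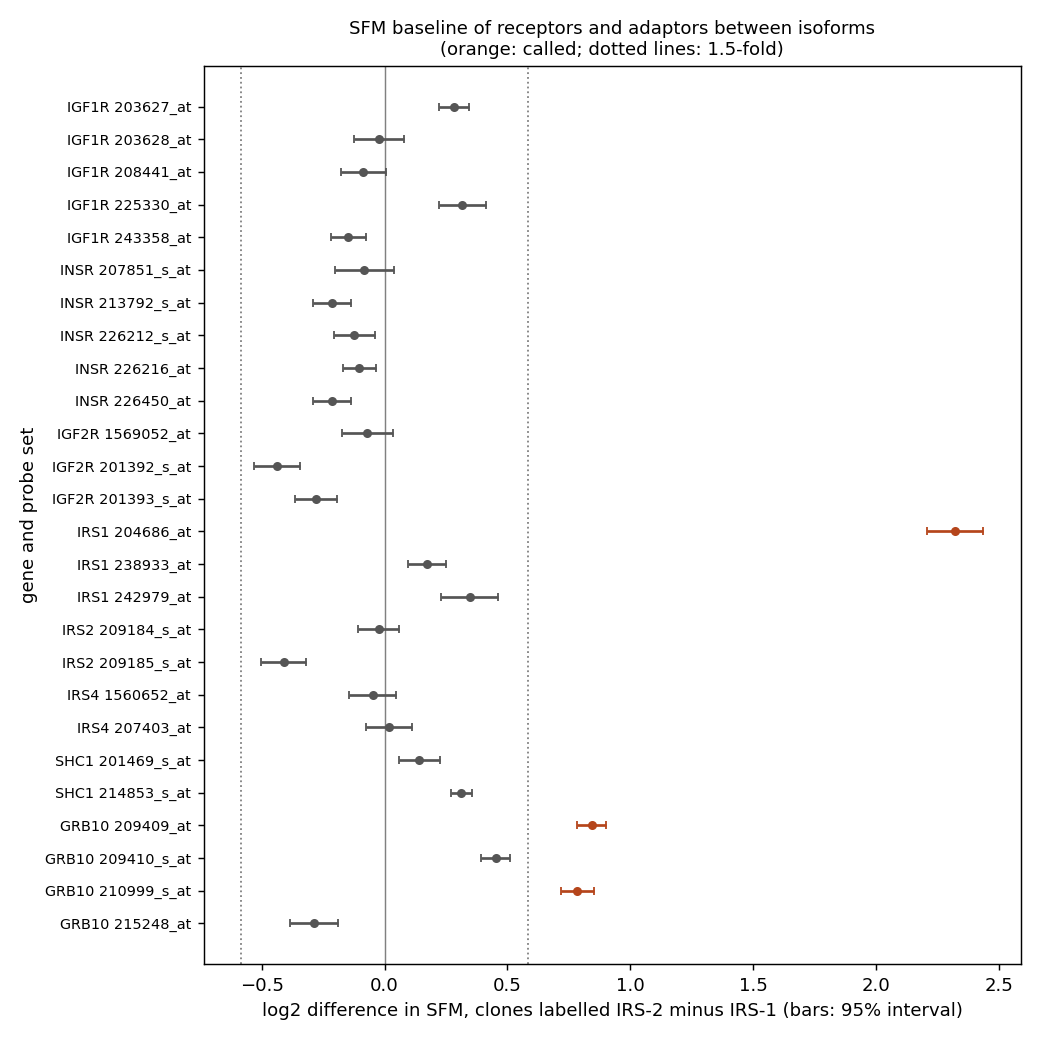
Log2 difference in SFM, clones labelled IRS-2 minus clones labelled IRS-1, for the 26 probe sets (points: mean difference of 12 against 12 arrays; bars: 95% interval from limma; dotted lines: 1.5-fold). The 3 called probe sets are IRS1 204686_at at 2.32 and GRB10 209409_at and 210999_s_at at 0.84 and 0.78, and GRB10 215248_at lies on the other side of 0.

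The response to IGF-I asks whether the pathway altered the transcripts of its own receptors and adaptors. None of the 208 differences, 26 probe sets in 4 clones at 2 times, was called in limma. All probe sets were called at rates of 0.0623%, 0.110%, 0.108% and 0.223% at 4 h and 0.251%, 0.251%, 0.0476% and 0.0787% at 24 h, and the count of 0 among the members stands against these low rates. The differences ran from -0.38 to 0.55, and 206 of the 208 intervals lay wholly inside 1.5-fold in either direction. At the adjusted p alone, 11 of the 208 passed, on 9 of 26 probe sets, where 17.5% of all probe sets passed in at least 1 comparison. All probe sets passed it at rates of 1.81%, 3.08%, 1.62% and 2.35% at 4 h and 8.01%, 7.20%, 3.15% and 3.84% at 24 h. With the methods' t-test at its unadjusted threshold 2 to 7 of the 26 passed per comparison without the fold and 0 with it. Without the fold, 9.46%, 7.20%, 9.78% and 7.40% of all probe sets passed that test at 4 h and 17.0%, 13.1%, 15.5% and 14.2% at 24 h. With the fold the shares were 0.0641%, 0.0824%, 0.108% and 0.220% at 4 h and 0.253%, 0.249%, 0.0659% and 0.0769% at 24 h.

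INSR held 3 of the 11, all lower after 4 h of IGF-I. On 213792_s_at in IRS-1 #10, the SFM arrays read 8.39, 8.22 and 8.42 and the IGF-I arrays 8.01, 7.96 and 7.93, with no overlap. The difference was -0.38 (SE 0.08, adjusted p = 0.00317), and at 24 h it was -0.07. At 24 h in this clone all 5 INSR probe sets lay below 0, from -0.20 to -0.07, none past the adjusted p, while the mean of the 5 differed by -0.14 (adjusted p = 0.0258 in limma), after -0.17 at 4 h (adjusted p = 0.0192). The same probe set differed by -0.21, -0.24 and -0.24 at 4 h in #20, #1 and #6, none past the adjusted p. In IRS-1 #20, 226216_at differed by -0.24 (adjusted p = 0.0305), and in IRS-2 #1, 226450_at by -0.30 (adjusted p = 0.0251), both without overlap of the arrays. At 4 h the mean of the 5 INSR probe sets differed by -0.04, -0.18 and -0.14 in #20, #1 and #6 (adjusted p = 0.687, 0.0132 and 0.0585 in limma).

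IGF1R and IGF2R had 0 of the 11. Their signs at 4 h leaned one way, with 18 of 20 IGF1R values and 12 of 12 IGF2R values below 0, alongside 16 of 20 for INSR. Over all probe sets, 50.9% to 53.9% of the values at 4 h were below 0, depending on the clone. With the ACTB 3′ to 5′ difference, which was lower with IGF-I, as a covariate, the counts below 0 at 4 h were 18 of 20 for IGF1R, 12 of 12 for IGF2R and 17 of 20 for INSR. The IGF1R values at 4 h ran from -0.24 to 0.05 and the IGF2R values from -0.26 to -0.01, so each was small. Probe sets of a gene, read on the same arrays, are not independent. At 24 h the counts below 0 were 11 of 20, 9 of 12 and 16 of 20, where 46.5% to 52.5% of all probe sets were. In IRS-1 #10 at 24 h the mean of the 3 IGF2R probe sets differed by -0.25 (adjusted p = 0.0290 in limma). It did not pass in the other clones.

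IRS1 on 204686_at was the member with the highest value after 4 h. In IRS-2 #1 the SFM arrays read 8.47, 8.32 and 8.39 and the IGF-I arrays 8.78, 8.98 and 8.86, all above the controls. The difference was 0.48 (SE 0.11, 1.39-fold, adjusted p = 0.0124). In IRS-2 #6 it was 0.27 (adjusted p = 0.294), and in IRS-1 #20 and #10 it was 0.15 and -0.03.

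By 24 h the IRS1 value in IRS-2 #1 was gone, with SFM arrays at 8.45, 8.49 and 8.58 and IGF-I arrays at 8.30, 8.39 and 8.40. The response at 24 h minus that at 4 h was -0.62 (SE 0.16, adjusted p = 0.0404), 1 of the 2 calls among the 104 member tests of time. In limma fits without the arrays of replicate B (-0.55, adjusted p = 0.207) or of replicate C (-0.61, adjusted p = 0.528) the call was lost, as it was with normexp (-0.56), with median centring (adjusted p = 0.0722) and without the intensity trend (adjusted p = 0.0614). The other 2 IRS1 probe sets, 238933_at and 242979_at, differed by -0.03 and 0.12 in this clone at 4 h.

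**Figure D3:**
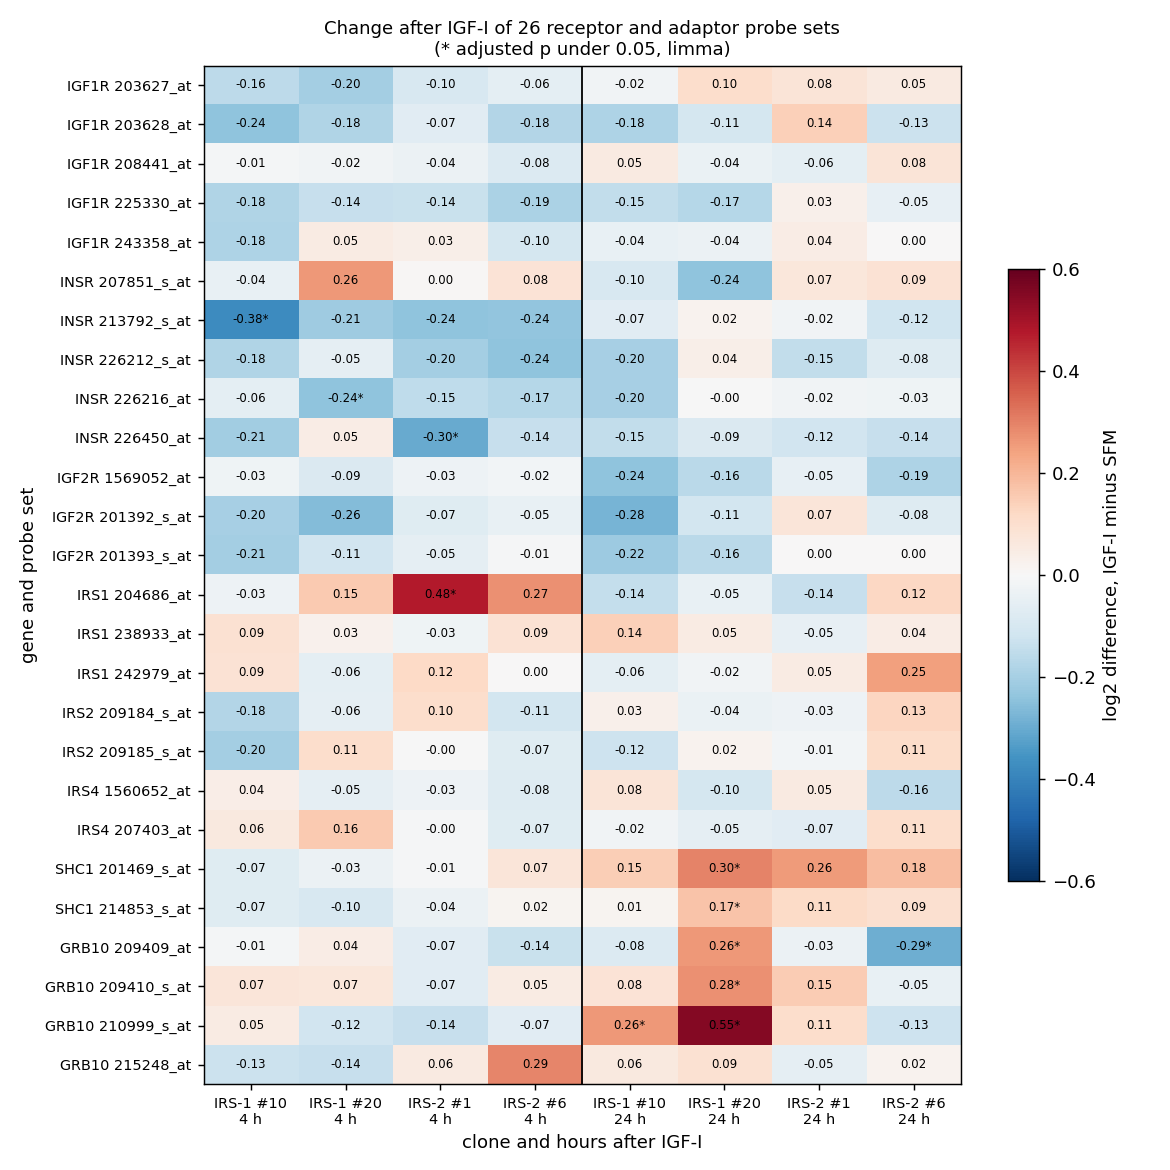
Log2 difference after IGF-I, IGF-I minus SFM, for the 26 probe sets (rows) in each clone after 4 h (left 4 columns) and 24 h (right 4 columns), with red above and blue below 0. Asterisks mark the 11 values past the adjusted p, of which 0 reached 1.5-fold, and the left columns hold 75 of 104 values below 0.

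GRB10 held 5 of the 11 values, all at 24 h. On 210999_s_at in IRS-1 #20, the SFM arrays read 8.59, 8.60 and 8.77 and the IGF-I arrays 9.18, 9.21 and 9.23, with no overlap. The difference was 0.55 (SE 0.07, 1.47-fold, adjusted p = 3.25e-08), and without replicate C it was 0.60 and called. In IRS-1 #10 the same probe set read 8.46, 8.42 and 8.47 in SFM and 8.66, 8.67 and 8.81 with IGF-I, a difference of 0.26 (adjusted p = 0.00682).

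In IRS-1 #20 the probe sets 209409_at and 209410_s_at were higher by 0.26 (adjusted p = 0.00250) and 0.28 (adjusted p = 0.00118) after 24 h of IGF-I. In IRS-2 #6, by contrast, 209409_at differed by -0.29 (adjusted p = 0.00130), with SFM arrays at 9.98, 9.94 and 9.87 and IGF-I arrays at 9.57, 9.61 and 9.74. The test of the difference between isoforms at 24 h, IRS-2 minus IRS-1, gave -0.42 for 210999_s_at (SE 0.07, adjusted p = 9.01e-05) and -0.25 for 209409_at (adjusted p = 0.0293). These were the 2 of 52 tests of response between isoforms that passed the adjusted p, where 0.260% and 0.476% of all probe sets passed at 4 h and 24 h, and none was called (0.0293% and 0.0586% of all probe sets). The spread between clones is not in their errors. On 209409_at at 24 h, IRS-1 #10 read 9.25, 9.28 and 9.21 in SFM and 9.17, 9.16 and 9.16 with IGF-I, opposite to IRS-1 #20. IRS-2 #1 read 9.98, 9.96 and 9.97, then 9.89, 9.99 and 9.93. On 210999_s_at, IRS-2 #1 read 9.23, 9.23 and 9.20 in SFM and 9.26, 9.35 and 9.36 with IGF-I. IRS-2 #6 read 9.48, 9.56 and 9.33, then 9.30, 9.32 and 9.37.

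In the controls GRB10 also drifted with time. SFM arrays of IRS-1 #20 on 210999_s_at read 9.03, 9.16 and 9.12 at 4 h and fell by 0.45 to the 24 h values above (adjusted p = 2.00e-06), while its IGF-I arrays read 9.15, 8.81 and 9.01 at 4 h. The IGF-I arrays at 24 h thus stood near the 4 h level of the controls, and the SFM arrays of 24 h were the low group of the 4. Its response differed between 24 h and 4 h by 0.67 (SE 0.09, adjusted p = 2.81e-06), the other call among the members in tests of time, where 0.280%, 0.456%, 0.157% and 0.240% of all probe sets were called in the 4 clones. In fits without replicate B it was 0.52 and not called. The same probe set differed between 24 h and 4 h in SFM by -0.33 in IRS-2 #1 (adjusted p = 0.000753) and by -0.23 in IRS-2 #6 (adjusted p = 0.0156).

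SHC1 was above 0 in all 8 values at 24 h, from 0.01 to 0.30, after 6 of 8 below 0 at 4 h. The mean of its 2 probe sets differed at 24 h by 0.08, 0.23, 0.18 and 0.14 (adjusted p = 0.423, 0.00477, 0.0487 and 0.161 in limma). In IRS-1 #20 at 24 h, 214853_s_at read 11.62, 11.62 and 11.75 in SFM and 11.81, 11.86 and 11.84 with IGF-I, a difference of 0.17 (adjusted p = 0.00753). On 201469_s_at it was 0.30 (adjusted p = 0.0160), with overlap, as the third SFM array read 10.17 and the first IGF-I array 10.12. The response of 214853_s_at in this clone differed between times by 0.27 (adjusted p = 0.00453), and so did that of IGF1R 203627_at, by 0.31 (adjusted p = 0.0298), neither called. Such differences of time passed the adjusted p at 2.54%, 4.79%, 0.958% and 0.976% of all probe sets.

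IRS2 and IRS4 had no value past the adjusted p after IGF-I. The IRS2 values ran from -0.20 to 0.13 and their intervals from -0.39 to 0.30, and those of IRS4 from -0.16 to 0.16 with intervals from -0.35 to 0.35. A 1.5-fold change of these probe set values lies outside the intervals. Whether IRS4 was expressed cannot be told from its low values, and the IRS2 probe sets may not read the transferred gene. The intervals therefore do not bound a change of either gene.

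**Figure D4:**
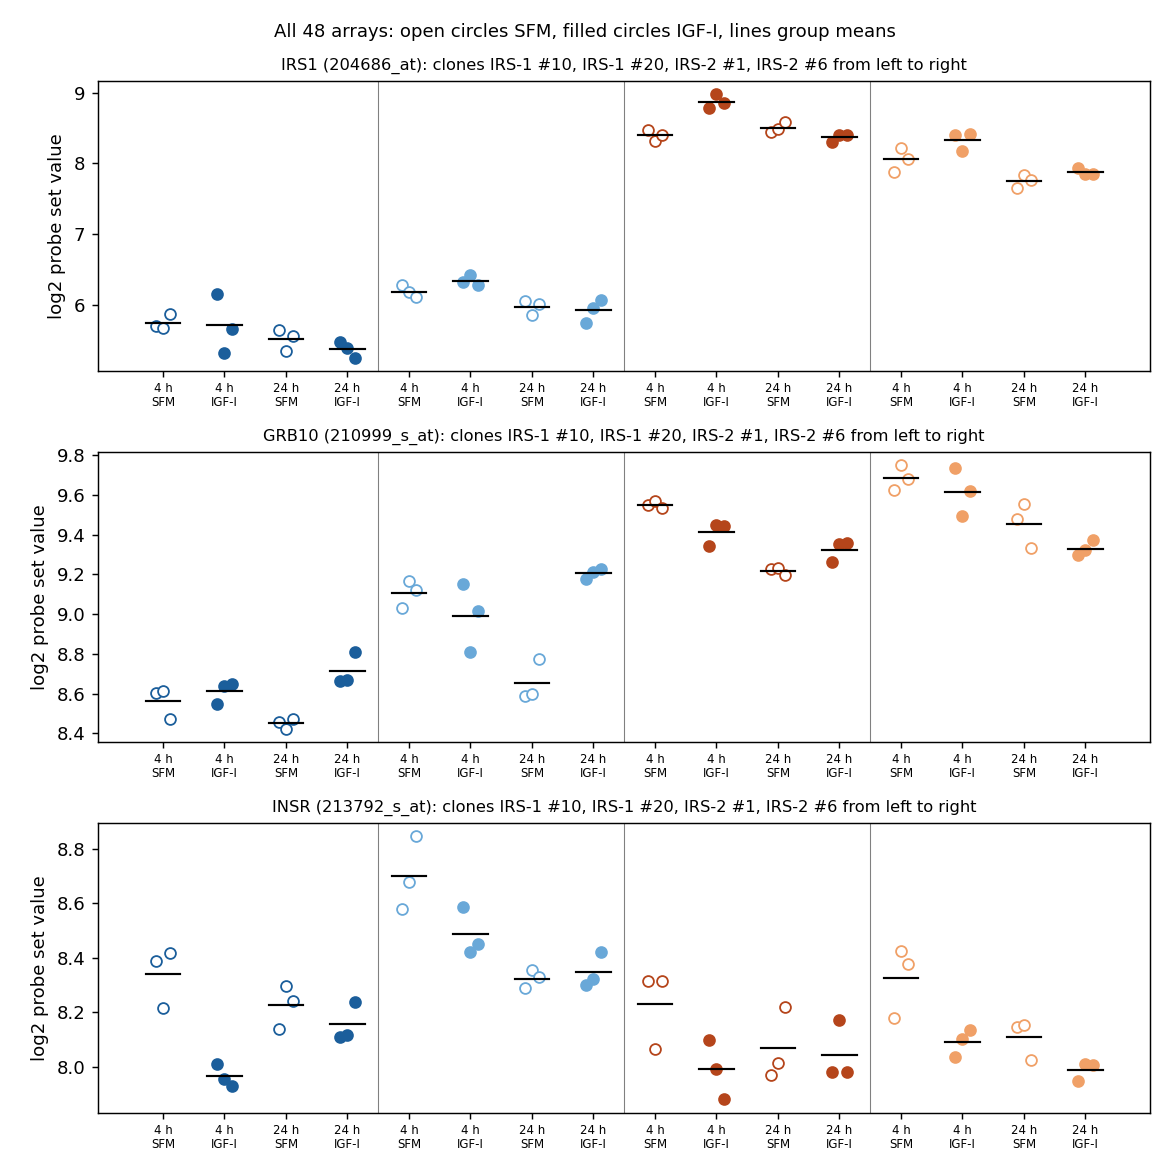
Log2 values of IRS1 204686_at, GRB10 210999_s_at and INSR 213792_s_at on all 48 arrays (open circles SFM, filled circles IGF-I, lines group means of 3 arrays; the axes do not start at 0). IRS1 in IRS-2 #1 is higher with IGF-I at 4 h, GRB10 in IRS-1 #20 separates at 24 h where its controls are lower than at 4 h, and INSR in IRS-1 #10 is lower with IGF-I at 4 h.

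Time in SFM alone left 16 of 104 member values past the adjusted p, on 12 probe sets, and 0 called. All probe sets were called there at 0.0220%, 0.699%, 0.229% and 0.482%, and passed the adjusted p at 1.83%, 20.8%, 5.33% and 12.8% (31.6% in at least 1 clone). IGF2R was higher at 24 h in the clones labelled IRS-2. On 201393_s_at in IRS-2 #1, the 4 h arrays read 10.18, 9.89 and 10.10 and the 24 h arrays 10.42, 10.53 and 10.64, a difference of 0.47 (adjusted p = 0.000168) that rose to 0.59 and a call without the replicate A arrays. In IRS-2 #6 it was 0.39 (adjusted p = 0.00121), with 0.42 on 201392_s_at (adjusted p = 0.00150), and IRS-1 #10 had no member past the adjusted p.

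INSR 213792_s_at in IRS-1 #20 differed by -0.38 between 24 h and 4 h in SFM (adjusted p = 0.000441). SHC1 went both ways, with 214853_s_at differing by -0.12 in IRS-1 #20 (adjusted p = 0.0405) and by 0.15 in IRS-2 #6 (adjusted p = 0.0122). IRS2 209184_s_at differed by -0.26 in IRS-2 #6 (adjusted p = 0.0303).

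Of 70 other genes of the pathway (further ligands and receptors, PI 3-kinase subunits, adaptors, kinases and inhibitors), 57 had an unambiguous probe set. After IGF-I, 1 of the 57 was called in 1 of 8 comparisons, TRIB3, a pseudokinase that binds AKT, at 1.15 in IRS-1 #20 at 24 h (adjusted p = 3.24e-26), where 0.314% of all genes were called. Its response differed between isoforms at 24 h by -0.65, IRS-2 minus IRS-1, the 1 call among the 57, where 0.106% of all genes were called. In IRS-1 #10 at 24 h no gene of the 57 was higher by more than 0.48. The spread between clones is not in the error of the isoform difference. At the adjusted p alone, 6 to 12 of the 57 passed per comparison in the clones labelled IRS-1 and 2 to 4 in those labelled IRS-2, a difference in count that was not tested. Of all genes, 2.65%, 4.71%, 2.32% and 3.46% passed at 4 h and 11.0%, 10.4%, 4.55% and 5.76% at 24 h, so the rate over all genes was also higher in the clones labelled IRS-1 at 24 h.

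In SFM, the relative of GRB10 called with it between the isoforms was GRB14, also an inhibitor of the insulin receptor, at 0.96 (adjusted p = 3.22e-16). DEPTOR, an inhibitor of mTOR, differed by -0.65 (adjusted p = 1.94e-22), and these were the 2 of 57 called, where 5% of all genes were. The ectoenzyme ENPP1, which inhibits INSR, followed the clones as IGF1R did, being higher than in IRS-1 #10 by 1.64 in #20, 1.22 in #1 and 1.27 in #6, all called. The other genes called in at least 1 pair of clones were CBLB, TRIB3, GAB2 and DOK4, where 1.55% to 8.25% of all genes were called per pair. Over time in SFM GRB14 and CBLB fell by 0.67 and 0.59 in IRS-1 #20, where 0.541% of all genes were called.

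Each member, by its probe set of highest mean, was set against 18808 genes over the 16 group means, as a description of points that share clones. The genes most like IGF1R were TIMP1 (r = 0.98), NTN1 (r = 0.98) and GAPDH (r = 0.97). For GRB10 they were SF3A1, AGAP2-AS1 and STK4-DT (each r = 0.98), for SHC1 SRGN (r = 0.98), P4HA2 and EDC4 (each r = 0.97), and for IRS2 CTSK, ANKRD36BP2 and ZNF563 (each r = 0.95). IGF2R was most like TNRC18 (r = 0.94), CLTC and ZBTB7B (each r = 0.93), and IRS1, here by 238933_at, like ATP8A2 (r = 0.93), ZBED3-AS1 (r = 0.91) and CD163L1 (r = 0.90). INSR with PCED1A (r = 0.90), TFDP2 and ATXN7L3B (each r = 0.87), and IRS4 with CCL8, LINC02504 and SLC2A3 (each r = 0.81), had the least close matches.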

How the data were processed

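The 48 arrays were summarized with GC-RMA in GeneData Refiner according to the methods, and GCRMA, of unstated version, is also the tool in the submitters' processing notes. The values the authors deposited are log2 probe set levels, each array a column of its own, of 54675 probe sets. The methods describe a further normalization to untreated arrays that these values do not hold. Without scanner intensities the margin of signal over background could not be judged here, and the precision is limited by the number of arrays and of clones. No 2 columns held the same values.

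The platform annotation supplied symbols, and 41091 of the tested probe sets carry 1 symbol, 1801 several and 11721 none. By Entrez identifier 41037 matched the reference gene table, with 0 symbols changed. Members, the pathway list and the cell type markers were chosen with earlier results of these data known. Named genes were all 8 members, pathway genes called in a comparison and, for each member, the 3 genes with the most similar group means.

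The 62 Affymetrix controls were left out, and 54613 probe sets entered a limma 3.58.1 model (R 4.3.3) of 16 group means over all arrays, whose moderated variances followed an intensity trend (32 residual degrees of freedom). Benjamini-Hochberg adjustment ran over all probe sets within each of 25 comparisons, with a threshold of 0.05 and a fold of 1.5, and intervals are 95%. In place of the methods' t-test, limma was the main test, since groups hold 3 arrays. The scripts were tested on simulated data.

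Alternatives were normexp on unlogged values (offset 50), quantile normalization, median centring, a filter on dim probe sets (log2 of 5 on 3 arrays, passed by all 26 members, 242979_at with clone means under it), no intensity trend, a model of only the arrays compared, the replicate letter as a block, each letter left out, a 2-fold or no fold threshold, probe sets averaged by gene and the methods' t-test. The ACTB covariate was added after seeing the data. RNA was isolated with 1 of 2 kits, and which array had which is not given in the sources used here. Figures were made with Python 3.11.15 and matplotlib 3.10.9, and windows were searched with pandas 2.3.3.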

Additional observations from a re-analysis of the deposited data

Results flagged for a closer look

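The IGF-I response of 2 member probe sets differed between 24 h and 4 h in the same clone by a limma contrast. For GRB10 210999_s_at in IRS-1 #20 the response at 24 h exceeded that at 4 h by 0.67 (adjusted p = 2.81e-06), with the SFM arrays at 24 h lying below those at 4 h. For IRS1 204686_at in IRS-2 #1 the response at 24 h minus that at 4 h was -0.62 (adjusted p = 0.0404), and over the settings tried its adjusted p ran from 0.000398 (only the arrays compared) to 0.528 (without the replicate C arrays), while that of the GRB10 value ran from 6.48e-08 to 0.0152.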

How the results depend on the processing

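Counts are of the 26 member probe sets called in at least 1 comparison of a kind. Without a fold threshold, 9 passed after IGF-I (0 with it), 19 between isoforms in SFM (3), 21 between clones (8), 12 over time in SFM (0), 2 for the response between isoforms (0) and 4 for the response between times (2). For the 21 between clones, the matching share of all probe sets in at least 1 pair was not computed. Single pairs passed at 19.3% to 54.8% of all probe sets, so the 21 is not read as particular to the members. With a 2-fold threshold 1 was called between isoforms, 2 between clones and 0 for the response between times. The last count was 1 with normexp, with median centring or without the intensity trend, where IRS1 204686_at in IRS-2 #1 was lost (-0.56, short of 1.5-fold, then adjusted p = 0.0722 and 0.0614 in limma).

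Leaving out the arrays of 1 replicate letter gave 0 to 1 after IGF-I, 0 to 1 over time in SFM and 0 to 2 for the response between times. With a gene as the mean of its probe sets, 1 gene in place of 2 was called between isoforms (GRB10 was lost, at 0.45), 1 in place of 4 between clones (IGF1R, IGF2R and GRB10 were lost, with IGF1R at 0.53 in #20 minus #10) and 0 in place of 2 for the response between times. IRS1 was the gene left in the first 2. All other settings kept the counts within 1.5 times, and no member value that was called changed sign. Of 25 called values among 650, the 2-fold threshold lost 19. Every other setting that kept single probe sets lost at most 2, and 21 were called under all of these. Averaging by gene is not in these counts, and the methods' t-test covered only the 208 IGF-I responses, none of them called.

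The replicate letters did not pair the arrays. In 24 pairs of an IGF-I and an SFM array of the same clone, time and letter, the correlation of deviations ran from -0.44 to 0.30. It was above 0.1 in 3, and 4 IGF-I arrays correlated best with the SFM array of their own letter. With the letter as a replicate block the counts were 0, 3, 8, 0, 0 and 2 probe sets in the order above.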
